A study of Mus musculus with 33 samples.

Results

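The integrin and laminin genes were followed in mouse embryonic stem cell cultures that had been directed toward paraxial mesoderm and then toward tendon-like or fibrocartilage-like fates. Members were taken by symbol, as every integrin alpha (Itga), integrin beta (Itgb) and laminin alpha, beta or gamma chain (Lama, Lamb, Lamc) in the deposited count table. This gave 33 of 17120 genes, of which 22 were integrins and 11 were laminins. All 11 laminin chains of the class lists were in the table. Of the 26 integrin subunits listed, 22 were in it, and Itgad, Itgam, Itgax and Itgb6 were not among its rows. RNA sequencing covered 33 cultures in 11 groups of 3 replicates.

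All groups came from stem cells that carry a ScxGFP reporter, in which regulatory sequence of Scx, the transcription factor of tendon progenitors, drives a green fluorescent protein. Cultures had been aggregated with the BMP inhibitor LDN-193189 and then treated with this inhibitor and the Wnt agonist CHIR. The paraxial mesoderm group (PM) was collected on D6, which the labels count as day 0. The other cultures then received FGF2, TGFβ1 and the hedgehog agonist SAG together with a retinoid ligand. In one condition this was CD1530, which activates the gamma receptor for retinoic acid. In the other, called AGN, it was AGN 193109, an inverse agonist of the same receptor family. Collection times were D6.25 and D6.75, then D7.5 and D8.5, and last D10, or 0.25, 0.75, 1.5, 2.5 and 4 days past PM, for each condition. There was no group without a retinoid receptor ligand after D6, so every difference given below between conditions lies between an agonist and an inverse agonist. The methods describe an optimised protocol with AGN also before D6, and the labels do not say whether these libraries came from it. The 3 libraries of a group are called biological replicates in the methods, but which of the study's reporter lines each came from is not stated, so p-values measure the spread between these libraries.

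Integrins are transmembrane receptors made of 1 alpha and 1 beta subunit, and the alpha subunit largely sets which matrix protein is bound. Laminins are trimers of 1 alpha, 1 beta and 1 gamma chain that assemble into the basement membrane, the thin matrix sheet beneath epithelia and around muscle, fat and vessels. In tendon and cartilage, collagen-binding integrins anchor cells to the fibrillar matrix. Cells with a basement membrane hold on to it through laminin-binding integrins and dystroglycan.

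The libraries held 17.1 to 22.8 M counts each, and replicate 1 of AGN at D8.5 held 38.1 M. Levels are given as CPM, the counts scaled to a common library total with TMM factors, and are compared between genes only as RPKM, the CPM per kilobase of exon. A gene was called at a Benjamini-Hochberg adjusted p-value under 0.05 in edgeR's quasi-likelihood test over all 17120 genes. An error after a level or a share is the SD of 3 libraries, and one after a log2 fold change is its SE. In the PM libraries the 5 paraxial mesoderm markers summed to 50.5 to 54.3 CPM, above the 13.6 to 17.8 CPM of CD1530 and the mean of 13.4 CPM of AGN at D10, and 4 of the 5 fell by D10 in each condition. Their levels in PM were low beside those of pluripotency genes. The paraxial mesoderm genes Tbx6 and Msgn1 stood at 9.56 ± 0.77 and 3.38 ± 0.61 CPM (SD, n = 3), whereas the pluripotency genes Pou5f1 and Nanog stood at 701.2 ± 8.2 and 466 ± 7.6 CPM and the epithelial cadherin Cdh1 at 431 ± 15 CPM. The summed level of 6 pluripotency genes was 2829 to 2949 CPM in PM, and at D10 it was 216 to 224 CPM in CD1530 and 368 to 385 CPM in AGN. These are whole cultures, in which fewer cells of a type and less RNA per cell cannot be told apart.

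Certain libraries stood apart for the members themselves. In CD1530 at D6.25, replicate 1 was the lowest library of its group for 30 of 33 members, with a median deviation of -0.118 on the log2 scale from the group mean. In CD1530 at D6.75, replicate 1 was the lowest for 24 of 33 members, with a median deviation of -0.196. In that library the genes with at least 5000 bases of exon had a median deviation of -0.120, and 27 of the 33 members are of that length. In AGN, replicate 2 at D8.5 was the lowest for 25 members and replicate 3 at D7.5 for 23, with median deviations of -0.059 and -0.051. Counts of called members at these times are given with and without them.

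Members rose far more often than they fell from PM to D10. In CD1530, 22 members rose and 9 fell, where 43.3% of all genes rose and 39.9% fell. In AGN, 22 rose and 8 fell, against 41.6% and 40.4% of all genes. Both trajectories start from the same 3 PM libraries. The median log2 fold change of the members was 2.00 in CD1530, beside 0.04 for all genes, and 1.70 in AGN, beside 0.00. After 0.25 days, at D6.25, 20 members had risen and 7 had fallen in CD1530 (34.5% and 33.3% of all genes; 20 and 6 without CD1530 replicate 1), and 22 had risen and 7 had fallen in AGN (35.0% and 33.1%).

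The collagen-binding alpha subunits all rose in both conditions. Itga11, the alpha subunit of a receptor for fibrillar collagens made by mesenchymal cells, had the largest rise. It read 2.87, 1.84 and 1.94 CPM in the PM libraries, 75.3, 72.2 and 75.9 CPM in CD1530 at D10, and 273, 279 and 268 CPM in AGN at D10. No library of the 3 groups overlapped another group. The log2 fold change from PM was 5.06 ± 0.12 (SE) in CD1530 (edgeR adjusted p = 4.5e-28) and 6.94 ± 0.11 in AGN (edgeR adjusted p = 6.0e-33). Itga10, the collagen receptor subunit known from chondrocytes, was at 1.00, 0.47 and 0.43 CPM in PM, 6.82, 8.20 and 6.91 CPM in CD1530 at D10 and 6.5, 8.37 and 7.19 CPM in AGN at D10. It rose by 3.50 ± 0.23 and 3.51 ± 0.23 on the log2 scale in CD1530 and AGN. Itga1, a receptor subunit for collagen and laminin, rose from 11.3 ± 1.4 CPM to 108 ± 3.1 CPM in CD1530 and 97.7 ± 2.4 CPM in AGN. The span of Itga1 overlaps that of Pelo on the same strand, so the counts of the pair may not be cleanly split.

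The RGD-binding alpha subunits, which recognise a short motif in fibronectin and related proteins, rose in both conditions as well. Itga5, the alpha subunit of the main fibronectin receptor, led all alpha subunits per length at D10 with 83.9 RPKM in CD1530 and 82.3 RPKM in AGN. Its level was 93.9, 87.0 and 80.8 CPM in PM and already 269 to 328 CPM in CD1530 and 322 to 338 CPM in AGN at D6.25. The other members of this class were Itgav, the shared alpha subunit of vitronectin and latent TGFβ receptors, Itga8, whose ligand nephronectin is made by epithelia, and Itga2b, the platelet fibrinogen receptor subunit. Itga8 rose from 0.50 RPKM in PM to 5.76 RPKM in CD1530 and 2.04 RPKM in AGN at D10. Itga2b had group means between 1.07 and 3.22 CPM, and rose by 0.82 ± 0.25 in CD1530 and 0.93 ± 0.25 in AGN. The alpha4/alpha9 class rose too, Itga9 from 16.1 ± 1.0 CPM to 151 ± 2.5 CPM in CD1530 and 90.2 ± 4.0 CPM in AGN, and Itga4, a receptor subunit for fibronectin and Vcam1, from 3.64 ± 0.46 CPM to 8.70 ± 1.07 and 14.6 ± 0.2 CPM.

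Among the members that fell were leukocyte subunits. Itgb7, which pairs with Itga4 and Itgae in lymphocytes, read 15.4, 17.7 and 15.9 CPM in PM, 2.63, 2.81 and 2.92 CPM in CD1530 at D10 and 1.69, 2.11 and 1.6 CPM in AGN at D10. All libraries of each D10 group lay below all PM libraries. Its fall was 2.55 ± 0.12 in CD1530 and 3.18 ± 0.13 in AGN on the log2 scale, written here without sign. Itgal, the alpha subunit of the lymphocyte receptor LFA-1, read 3.40, 2.46 and 2.58 CPM in PM, 1.16, 1.16 and 1.24 CPM in CD1530 at D10 and 0.81, 0.36 and 0.71 CPM in AGN at D10. Of 8 blood and leukocyte markers 5 were in the table, with Gata1 near 0 at D10 (means of 0.035 CPM in CD1530 and 0.20 CPM in AGN), and their summed level was 12.7 to 13.8 CPM in PM, 8.99 to 9.61 CPM in CD1530 at D10 and 13.6 to 15.6 CPM in AGN at D10. The part of such cells in these levels was not tested.

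Itga7, a laminin receptor subunit known from muscle, was at 11.5, 12.9 and 11.9 CPM in PM, 4.65, 5.45 and 4.89 CPM in CD1530 at D10 and 3.44, 4.64 and 3.74 CPM in AGN at D10. It fell in both. Lama3 and Lamb3, chains known from epithelial basement membranes, fell in CD1530. In AGN, Lama3 fell, and Lamb3 was at 3.71 ± 0.53 CPM in PM and 2.90 ± 0.74 CPM at D10 (edgeR adjusted p = 0.065). The epithelial marker sum was also lower at D10 than in PM. For the 6 measured of 8 it was 960 to 980 CPM in PM, 269 to 276 CPM in CD1530 at D10 and 397 to 404 CPM in AGN at D10. Krt5 and Krt14 were not among the table's rows. The courses between these times differed. At D6.25 the sum was higher, at means of 1235 CPM in CD1530 and 1336 CPM in AGN. Lama3 had by then fallen from 1.86 RPKM in PM to 0.72 RPKM in CD1530 and 0.87 RPKM in AGN. At D7.5 Lama3 was above its PM mean, at 2.61 RPKM in CD1530 and 2.03 RPKM in AGN, before it fell again. The epithelial sum at D7.5 had means of 686 CPM in CD1530 and 1136 CPM in AGN. The part of epithelial cells in these changes was not tested. Itgb4, the beta subunit of the epithelial laminin receptor, was at 14.8 ± 1.6 CPM in PM, 14.7 ± 0.5 CPM in CD1530 and 14.4 ± 2.9 CPM in AGN at D10, and neither difference from PM passed the test.

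Lama5, the laminin alpha chain of early embryonic and many adult basement membranes, fell while Lama1, Lama2 and Lama4 rose. It read 221, 180 and 203 CPM in PM, 85.6, 80.6 and 83.1 CPM in CD1530 at D10 and 85.9, 98.3 and 93.4 CPM in AGN at D10. All D10 libraries were below all PM libraries, and the CD1530 and AGN libraries lay next to each other without a call between them. Lama2, the alpha chain of the muscle basement membrane that is also made by mesenchymal cells, was at 3.21, 1.89 and 2.32 CPM in PM. At D10 its libraries read 59.2, 57.1 and 55.8 CPM in CD1530 and 115, 134 and 120 CPM in AGN. That is a log2 fold change of 4.53 ± 0.19 and 5.63 ± 0.18. Lama1, the alpha chain of the first embryonic basement membranes, rose from 90.4, 76.8 and 81.0 CPM to 826, 804 and 799 CPM in CD1530 and 363, 430 and 394 CPM in AGN. Lamb1 and Lamc1, which complete laminin-111, and Lamb2, the beta chain of neuromuscular and vascular basement membranes, rose as well.

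Lamc3, a gamma chain found in skin, brain and nerve, rose early, fell and rose again. It was at 9.76, 10.2 and 9.96 CPM in PM and at 56.4, 67.3 and 65.4 CPM in CD1530 and 61.7, 61.4 and 69.4 CPM in AGN at D6.25, so all 6 libraries lay far above the PM libraries. By D8.5 it had dropped to 2.23, 3.62 and 3.48 CPM in CD1530 and 6.55, 7.18 and 7.36 CPM in AGN. At D10 it was back at 29.1 to 32.3 CPM in AGN and at 6.16 to 6.82 CPM in CD1530. From PM to D10 it therefore fell in CD1530 (log2 fold change -0.64 ± 0.12) and rose in AGN (1.62 ± 0.10). Itgb8 had a similar shape, at 0.14 RPKM in PM and 0.83 RPKM in CD1530 and 1.005 RPKM in AGN at D6.25. Its level was 0.35 and 0.49 RPKM at D6.75 and 0.83 RPKM in both conditions at D10. The summed level of 8 endoderm markers was also highest at D6.25, with a mean of 217 CPM in CD1530 and 239 CPM in AGN against 25.7 CPM in PM, and its part in the Lamc3 course was not tested.

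**Figure D1:**
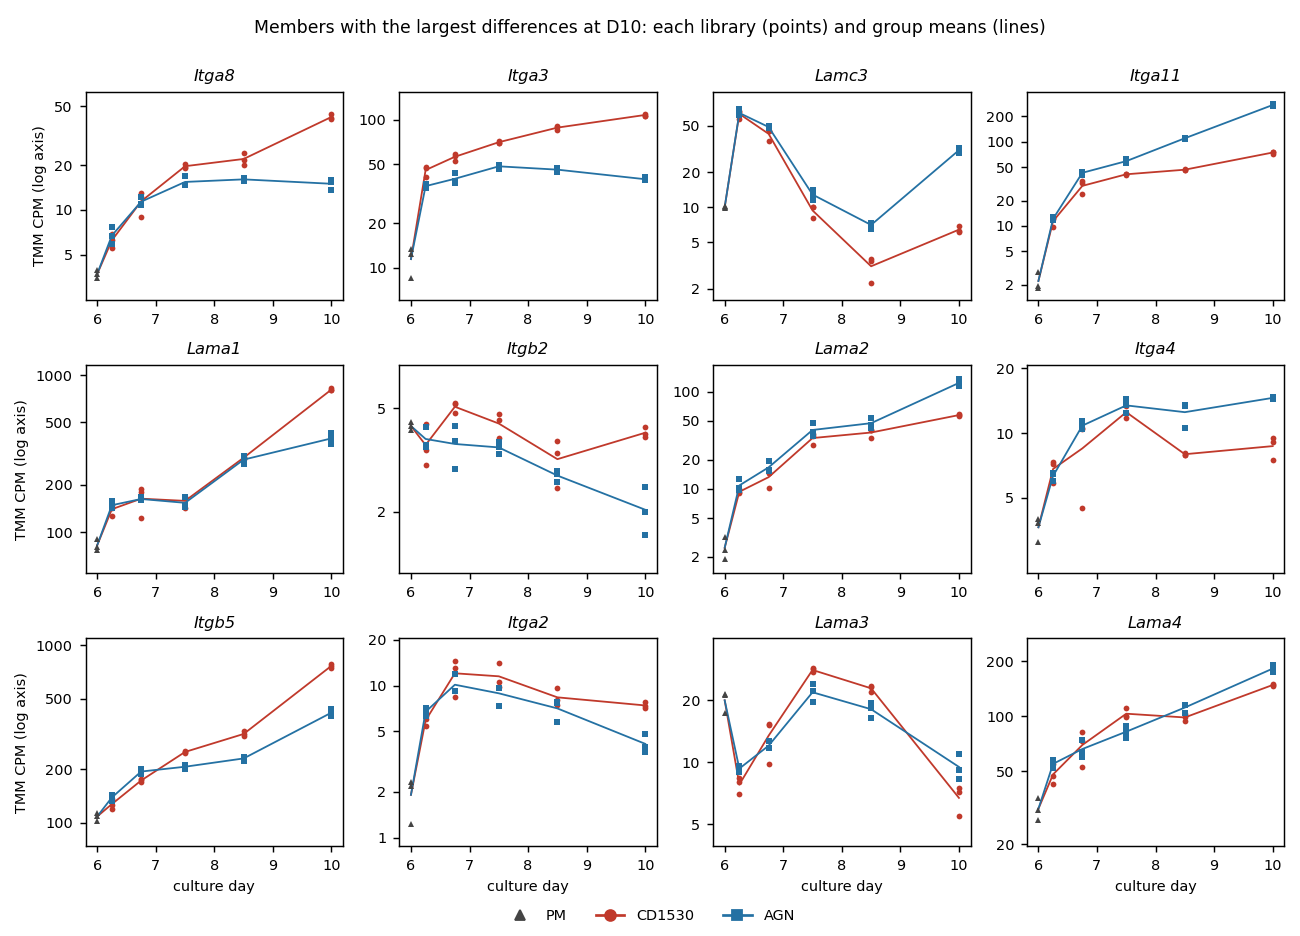
Level of 12 members, the 6 largest called differences each way at D10, as TMM CPM on a log axis against culture day. Points are single libraries, lines join group means, triangles are PM, circles CD1530 and squares AGN; in Itga3 the conditions part at D6.25, in Lama1 only at D10, and Lamc3 peaks at D6.25 in both.

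At D10, the comparison between the agonist and the inverse agonist asked which adhesion genes part the conditions. They are named here by their ligands only: the measured tendon markers, 5 of 6, summed to 1435 to 1480 CPM in CD1530 and 3933 to 4182 CPM in AGN, and 4 of them were lower in CD1530 with 0 higher. The median log2 fold change of these 5 was -1.02, and all 5 had risen from PM in each condition. By qPCR at D10 the study reported Mkx raised with CD1530, and Scx and Tnmd unaffected. Of the 33 members 14 were higher in CD1530 and 8 were lower, where 22.7% of all genes were higher and 24.0% lower. The libraries of the conditions did not overlap for 25 of the 33 members, beside 57.0% of all genes. The median log2 fold change of the members was 0.04, beside -0.02 over all genes. CD1530 had more of the laminin-111 chains, of Itga3, Itga8 and Itga9 and of 4 of 7 beta subunits. AGN had more of Itga11, Itga4, Lama2 and Lamc3. Itgb1 and Itga5, the most abundant beta and alpha subunits per length, did not differ detectably. Itgb1, the beta subunit shared by the collagen, laminin and fibronectin receptors, read 1503, 1489 and 1487 CPM in CD1530 and 1486, 1499 and 1470 CPM in AGN, a log2 difference of 0.01 ± 0.03, and Itga5 differed by 0.03 ± 0.05.

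**Figure D2:**
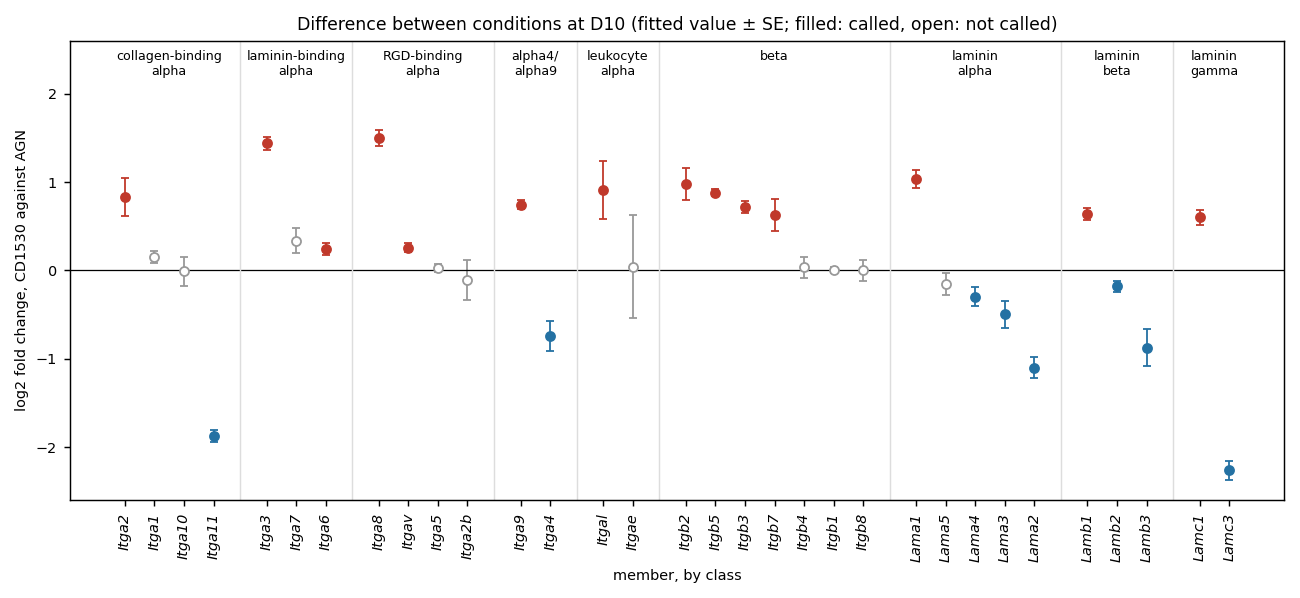
Fitted log2 fold change of 32 members at D10, CD1530 against AGN, with bars of 1 SE, in order of class. Filled points were called and open points were not; Itga8, Itga3 and Lama1 lie above 1, and Lama2, Itga11 and Lamc3 lie below -1.

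Among the laminin-binding alpha subunits, Itga3 was the one that separated the conditions most. It pairs with Itgb1 and binds laminins of the alpha3 and alpha5 type. It read 106, 106 and 110 CPM in CD1530 and 39.3, 40.7 and 38.9 CPM in AGN at D10, with no overlap. The log2 fold change was 1.44 ± 0.07 (edgeR adjusted p = 6.8e-20), a fold of 2.71. Per kilobase of exon it stood at 18.8 RPKM beside 13.9 RPKM of Itga6 in CD1530 at D10, and at 6.94 RPKM beside 11.7 RPKM of Itga6 in AGN. The order in CD1530 depends on the length used: per longest transcript Itga6 led there, with 11.2% of the integrin alpha sum beside 8.48% of Itga3. Itga6, which pairs with Itgb1 or Itgb4, read 124, 127 and 126 CPM in CD1530 and 106, 112 and 98.7 CPM in AGN, a log2 fold change of 0.25 ± 0.07. Itga7 differed by 0.34 ± 0.15 and was not called (edgeR adjusted p = 0.054).

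Of the RGD-binding subunits, Itga8 was higher in CD1530 by 1.50 ± 0.09 (edgeR adjusted p = 1.5e-17). Its level was 41.8, 40.8 and 44.7 CPM in CD1530 and 13.6, 16.0 and 15.4 CPM in AGN. The AGN libraries at D8.5 had been at 15.7, 16.3 and 16.2 CPM, next to their D10 levels. Npnt, which encodes its ligand nephronectin, was higher in CD1530 too, at a mean of 16.1 against 8.49 CPM. Itgav was higher by 0.26 ± 0.05, with 398 ± 2.4 CPM in CD1530 and 333 ± 7.0 CPM in AGN.

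Of the beta subunits that pair with Itgav, Itgb5 and Itgb3 were higher in CD1530 and Itgb8 was not called. Itgb5, the beta subunit of a vitronectin receptor, read 748, 780 and 767 CPM in CD1530 and 435, 414 and 401 CPM in AGN at D10, with a log2 fold change of 0.88 ± 0.04 (edgeR adjusted p = 1.0e-21). Itgb3, its close relative, was higher by 0.72 ± 0.07, at 97.8 ± 0.6 against 59.3 ± 1.8 CPM. Itgb8, the beta subunit of a receptor that activates latent TGFβ, was at 9.22 ± 0.62 and 9.21 ± 0.51 CPM. The remaining 2 calls in this class were leukocyte subunits at low levels. Itgb2 read 3.89, 3.96 and 4.22 CPM in CD1530 and 1.62, 1.99 and 2.49 CPM in AGN, and Itgb7 was higher by 0.63 ± 0.18. Itgal was higher by 0.91 ± 0.33 on 21 to 23 counts a library in CD1530 and 6 to 13 counts in AGN. That call was lost without AGN replicate 2 (edgeR adjusted p = 0.147). The blood marker sum given above was lower in CD1530 than in AGN at this time, with 2 of the 5 measured markers called lower. The part of blood cells in the levels of these 3 subunits was not tested. Itgae, the other leukocyte alpha subunit, was at 0.40 ± 0.10 and 0.38 ± 0.26 CPM, and its span overlaps that of Haspin on the other strand.

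The collagen-binding class split. Itga11 was lower in CD1530 by 1.88 on the log2 scale (SE 0.07, edgeR adjusted p = 3.3e-21), that is 3.67-fold higher in AGN. Itga2, a collagen and laminin receptor subunit of epithelia and platelets, went the other way, at 7.07, 7.32 and 7.81 CPM in CD1530 and 3.94, 3.67 and 4.81 CPM in AGN, a log2 fold change of 0.83 ± 0.21. Itga1 and Itga10 were not called, with differences of 0.15 ± 0.07 and -0.01 ± 0.16. The cartilage markers, 6 of 6 measured and none at 0, summed to 235 to 243 CPM in CD1530 and 3116 to 3252 CPM in AGN at D10. Between conditions at D10, Itga11 differed in the direction of this sum and Itga10 was not called. Within CD1530 the sum fell from a mean of 428 CPM at D8.5 to 240 CPM at D10. Itga11 rose over that step, from 9.07 to 14.5 RPKM. The part of cartilage-like cells in the level of Itga11 or Itga10 was not tested. Itga4 was at 9.50, 7.48 and 9.11 CPM in CD1530 and 14.4, 14.5 and 14.8 CPM in AGN, and was lower by 0.74 ± 0.17. One of its ligands, Vcam1, was lower in CD1530 as well, at a mean of 29.5 against 95.2 CPM. Itga9 was higher by 0.74 ± 0.05, with 151, 154 and 149 CPM in CD1530 and 94.8, 88.5 and 87.5 CPM in AGN, although 2 annotated genes (Gm10157 and Gm2415) overlap its span on the other strand.

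The laminin chains did not move together. All 3 chains of laminin-111 were higher in CD1530: Lama1 by 1.03 ± 0.10 (edgeR adjusted p = 1.1e-08), Lamb1 by 0.64 ± 0.07 (edgeR adjusted p = 9.1e-09) and Lamc1 by 0.60 ± 0.08 (edgeR adjusted p = 1.9e-06). Lamb1, long described as a retinoic-acid-responsive gene in teratocarcinoma cells, read 974, 957 and 941 CPM in CD1530 and 610, 650 and 585 CPM in AGN. Lamc1, the gamma chain of most laminins, read 1098, 1066 and 1049 CPM in CD1530 and 672, 737 and 710 CPM in AGN. The other alpha chains were lower or were not called. Lama2 was lower by 1.10 ± 0.12 and Lama4, the vessel and fat chain, by 0.30 ± 0.11, at 151, 148 and 146 CPM in CD1530 and 182, 191 and 175 CPM in AGN. The call of Lama4 was lost when any of 5 of the 6 libraries was left out, all except AGN replicate 3, with an adjusted p of up to 0.096. Lama3 was lower by 0.50 ± 0.15, at 7.17, 5.45 and 7.48 against 9.19, 11 and 8.26 CPM, and lost its call without CD1530 replicate 2 or AGN replicate 2. Lamb2 was lower by 0.18 ± 0.06, a call lost when CD1530 replicate 3 or either of AGN replicates 1 and 2 was left out, and Lamb3 by 0.87 ± 0.21, at a mean of 1.57 against 2.90 CPM. G0s2 and Hsd11b1 overlap the span of Lamb3 on the other strand. The largest difference of any member was in Lamc3, with 6.16, 6.82 and 6.24 CPM in CD1530 and 32.3, 31.0 and 29.1 CPM in AGN, 4.80-fold higher in AGN (log2 fold change -2.26 ± 0.11, edgeR adjusted p = 9.5e-21).

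Of the 33 members 20 had an entry in the RefSeq promoter table (GRCm38.p6), with 22 windows. The upstream 250 bases were searched on both strands for AGGTCA and AGTTCA, 2 forms of the half-site that retinoic acid receptors bind as direct repeats. Neither was in any of the 22 windows, whereas 14% and 11.8% of all 32851 windows held them. The member windows were richer in GC, with a median of 59.8% against 52.4% over all windows. The part of GC content in the absence of these letters was not tested. Direct repeats with spacers of 1, 2 or 5 bases were in 0.067%, 0.0365% and 0.0335% of all windows. These letters being absent says nothing of sites outside the windows. It also says nothing of other forms of the half-site, such as GGGTCA, which were not searched. The upstream sequences of 3 alpha and beta subunits and 1 laminin chain that were higher in CD1530 at D10, and of 2 members that were higher in AGN, are shown so that the compared promoters can be read side by side. Each is written 5′ to 3′ on the strand of its gene and cut where an annotated exon of the gene begins. Capitals mark the GC box GGGCGG or its complement, letters searched after the half-sites had been looked at. They occur in 8 of the 22 windows (36.4%) and in 32.7% of all windows. Lama2 has an annotated start farther upstream, and its window lies within an intron of that longer transcript.
Itga3 (chr11:95076802-95076964, minus strand): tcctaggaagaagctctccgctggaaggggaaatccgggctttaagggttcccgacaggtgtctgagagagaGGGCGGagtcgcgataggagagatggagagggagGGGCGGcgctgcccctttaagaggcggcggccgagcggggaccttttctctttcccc
Itga8 (chr2:12301945-12302194, minus strand): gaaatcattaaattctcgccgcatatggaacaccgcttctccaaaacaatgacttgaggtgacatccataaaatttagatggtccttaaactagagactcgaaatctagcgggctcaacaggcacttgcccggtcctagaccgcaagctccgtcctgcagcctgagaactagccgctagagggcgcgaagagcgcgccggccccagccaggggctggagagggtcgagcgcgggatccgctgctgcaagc
Itgb5 (chr16:33829415-33829664, plus strand): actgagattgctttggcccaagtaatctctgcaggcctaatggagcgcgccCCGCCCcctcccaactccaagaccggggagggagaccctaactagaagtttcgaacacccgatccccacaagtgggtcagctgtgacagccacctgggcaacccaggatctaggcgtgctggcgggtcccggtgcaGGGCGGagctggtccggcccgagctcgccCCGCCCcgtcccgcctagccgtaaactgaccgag
Lamb1 (chr12:31265043-31265233, plus strand): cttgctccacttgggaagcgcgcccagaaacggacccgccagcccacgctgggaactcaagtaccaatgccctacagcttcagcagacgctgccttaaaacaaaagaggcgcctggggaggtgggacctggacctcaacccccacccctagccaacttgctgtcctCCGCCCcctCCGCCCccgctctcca
Itga11 (chr9:62677605-62677825, plus strand): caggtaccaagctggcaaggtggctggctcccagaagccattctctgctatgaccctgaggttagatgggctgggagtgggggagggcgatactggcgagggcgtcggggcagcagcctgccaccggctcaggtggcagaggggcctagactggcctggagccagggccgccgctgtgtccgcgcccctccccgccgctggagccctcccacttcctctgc
Lama2 (chr10:27616943-27617192, minus strand): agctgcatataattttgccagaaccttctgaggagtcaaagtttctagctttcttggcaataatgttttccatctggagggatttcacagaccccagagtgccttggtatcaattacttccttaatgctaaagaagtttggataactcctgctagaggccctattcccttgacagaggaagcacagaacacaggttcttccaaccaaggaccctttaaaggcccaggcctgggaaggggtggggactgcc

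The printed stretches of Itga3, Itgb5 and Lamb1 hold 2, 3 and 2 GC boxes, and those of Itga8, Itga11 and Lama2 hold none of these letters. The GC content of the printed stretches ran from 47.2% in Lama2 to 69.2% in Itga11, beside a median of 52.4% over all windows.

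Between conditions, 1, 11, 18, 10 and 22 members were called at the 5 time points in order, and single members took different routes. The shares of all genes called were 1.92%, 18%, 26.9%, 40% and 46.6%. At D6.25 only Itga3 was called, at 41.3, 47.4 and 48.2 CPM in CD1530 and 36.8, 34.6 and 35.4 CPM in AGN, a log2 fold change of 0.36 ± 0.07 (edgeR adjusted p = 0.0022). All CD1530 libraries lay above all AGN libraries. One member higher stands beside 1.23% of all genes, and no member was called lower in edgeR, beside 0.695% of all genes. At an unadjusted p under 0.05, 14 of 33 members differed at D6.25, beside 11.7% of all genes, and DESeq2 also called 1 higher and 0 lower. The libraries of the conditions did not overlap for 14 members, against 21.1% of all genes. The median log2 fold change of the members was -0.134 there, with 27 of 33 below 0, beside -0.0207 for genes of at least 5000 exon bases and -0.003 for all genes. Without CD1530 replicate 1, the library in which the members were low, the median was -0.084 with 22 below 0, and Itga3 was called at 0.43. The part of that library and of gene length in the shift of the other members was not tested. Fitted on the 2 groups alone, 8 members were called lower and 1 higher.

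At D6.75, 4 members were higher in CD1530 (7.94% of all genes) and 7 were lower (10.0%). Itga3 and Itga9 were higher, as were the leukocyte subunits Itgb2 and Itgb7. Itga11, Itgb3, Itgb5, Itgb8, Lama5 and Lamb3 were among those that were lower. The difference in Itga11 was -0.51 ± 0.08, and that in Lamb3 was -0.81 ± 0.14. Without CD1530 replicate 1 the counts were 6 higher and 5 lower, Lama5 and Itgb8 were no longer called (Lama5 also not without AGN replicate 1 or 2), and Itga2 and Lama3 were called higher. The call of Itgb2 was lost without AGN replicate 1 (edgeR adjusted p = 0.179). Fitted on the 2 groups alone, 2 members were higher and 3 lower, and Itga9, Itgb2, Itgb3, Itgb5, Itgb8 and Lama5 were no longer called. The epithelial marker sum was 907.5 to 950.2 CPM in CD1530 and 1445 to 1499 CPM in AGN at this time, and its part in the differences of Lamb3 and Lama5 was not tested.

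At D7.5, 9 members were higher in CD1530 (15.2% of all genes) and 9 were lower (11.8%). Itga8 was called here and later, with 0.35 ± 0.09, and so was Lamc3, with -0.46 ± 0.11. Itgb1 differed at this time alone, by 0.15 ± 0.03. Itgae was called lower on 1, 1 and 11 counts in CD1530 and 15, 19 and 16 counts in AGN, so that call rests on few reads. Without AGN replicate 3, 6 were higher and 8 lower, with Itgb4, Itgb7, Lama3 and Lama4 no longer called. At D8.5, 5 members were higher (20.4% of all genes) and 5 were lower (19.6%), and without AGN replicate 2 the counts were 3 and 6. Itga11 had reached -1.24 ± 0.07 and Itga3 0.94 ± 0.07. Itga9 was called at 0.14 ± 0.05 but lost the call in 7 of 13 alternative settings, with DESeq2's size factors or test and without any single library except AGN replicate 3. Lama1, Lamb1 and Lamc1 were not called, with differences of 0.04 ± 0.11, 0.00 ± 0.07 and 0.15 ± 0.08. Fitted on the 2 groups alone, Lamc1 was called at D8.5 (edgeR adjusted p = 9.81e-05). In such fits it was also called higher in CD1530 at D7.5 (edgeR adjusted p = 0.0163) and lower at D6.25 (edgeR adjusted p = 0.0404).

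**Figure D3:**
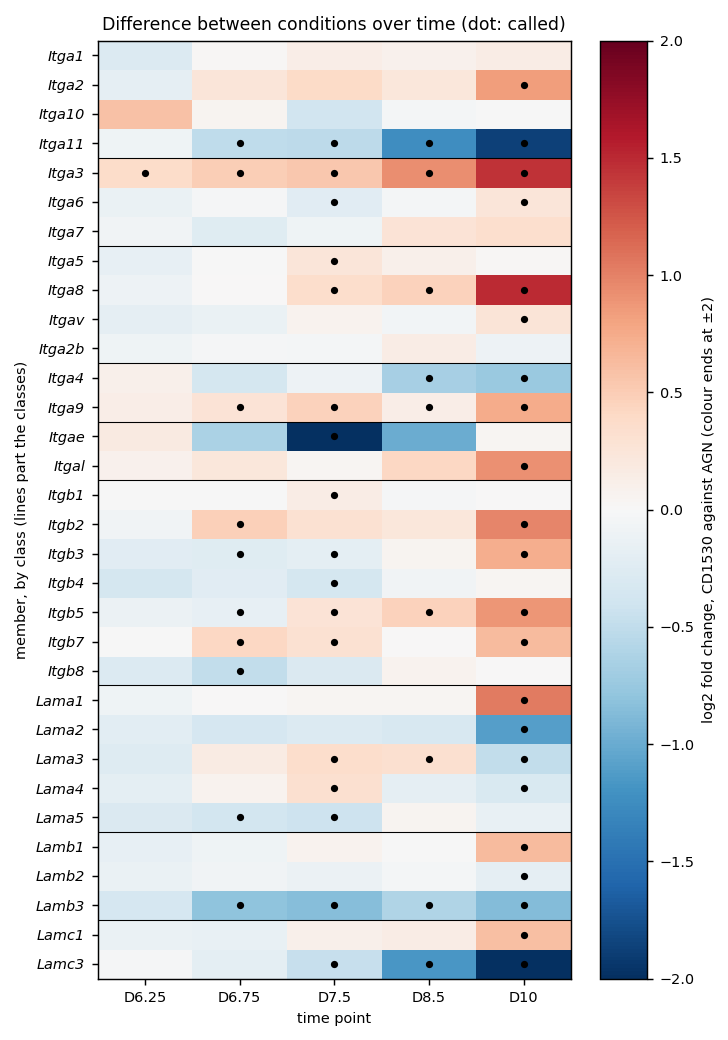
Fitted log2 fold change of 32 members between CD1530 and AGN at 5 time points, as colour from blue (lower in CD1530) to red (higher), with a black dot where a member was called. Itga3 carries a dot at all 5 times, Itga11 at 4, and the laminin-111 chains Lama1, Lamb1 and Lamc1 at D10 alone.

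Itga3 was the one member called at all 5 time points, and its difference was larger at each, from 0.36 at D6.25 to 1.44 at D10. Itga11 was called from D6.75 on. Several members crossed over. Itgb5 was lower in CD1530 at D6.75, with 175, 170 and 173 CPM against 192, 188 and 201 CPM, and was higher from D7.5 on, with 251, 252 and 248 CPM against 201, 206 and 212 CPM there. Itgb3 was lower at D6.75 and D7.5, by 0.25 ± 0.07 and 0.20 ± 0.07, and higher at D10. Its D7.5 call was lost when any of 4 of the 6 libraries was left out, CD1530 replicates 1 and 3 and AGN replicates 1 and 2, and its D6.75 call without AGN replicate 1. Itga6 was lower at D7.5 and higher at D10. Lama3 and Lama4 went from higher at D7.5 to lower at D10, with the D7.5 call of Lama3 lost without AGN replicate 3 (edgeR adjusted p = 0.0779) and that of Lama4 without CD1530 replicate 2 or 3 or AGN replicate 1 or 3. Over all 5 time points, the interaction of condition with time was called for 24 members (72.7%), beside 48.8% of all genes. It was called for 22 to 26 members when any of the 4 libraries that stood apart was left out. Lamb3 was called lower in CD1530 at each time from D6.75, with no call for this interaction (edgeR adjusted p = 0.12). Its D8.5 call was lost without CD1530 replicate 2 or 3 or AGN replicate 1, with an adjusted p of up to 0.296.

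**Figure D4:**
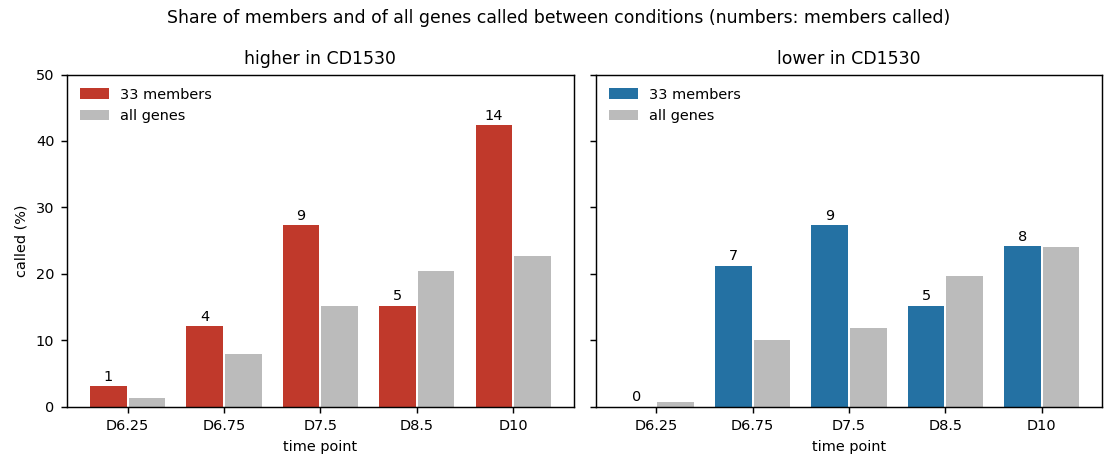
Percentage of the 33 members and of all genes tested that were called between conditions at each time point, higher in CD1530 on the left and lower on the right, with the number of members above each bar. The members' bars stand above those of all genes up to D7.5 except for lower calls at D6.25, below them at D8.5, and at D10 above them for higher calls and level for lower calls.

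In the fit over all groups the laminin-111 chains were called between conditions at D10 alone, after the closing step from D8.5. In CD1530, 20 members rose and 3 fell over this step (27.4% and 29.9% of all genes). In AGN, 14 rose and 8 fell (29.9% and 29.5%), with the same counts without AGN D8.5 replicate 2. The change over the step differed between conditions for 17 members (51.5%), beside 26.8% of all genes. Lama1 went from 295, 297 and 302 CPM to 810 ± 14 CPM in CD1530, a log2 rise of 1.44 ± 0.11, and from 292, 271 and 306 CPM to 396 ± 34 CPM in AGN, a rise of 0.45 ± 0.10. The difference of these changes was 0.99 ± 0.15 (edgeR adjusted p = 1.6e-05). Lamb1 was at 623 ± 16 and 624 ± 37 CPM at D8.5, and rose by 0.62 ± 0.07 in CD1530 against a change of -0.02 in AGN that was not called. Lamc3 rose in both, by 1.04 ± 0.16 in CD1530 and by 2.14 ± 0.10 in AGN. Itga3 rose by 0.28 ± 0.06 in CD1530 and fell by 0.22 ± 0.07 in AGN, the log2 value without its sign. Itga8 rose by 0.94 ± 0.09 in CD1530 and changed by -0.10 in AGN, without a call.

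The make-up of each chain class was read as the share of a chain in its class sum of RNA per length, so a share also moves when the other chains change. No test was made on shares. The laminin alpha sum was 28.0 to 33.9 RPKM in the PM libraries, and at D10 it was 106 to 110 RPKM with CD1530 and 68.0 to 78.1 RPKM with AGN. Lama5 held 57.3 ± 0.9% of it in PM, 6.80 ± 0.13% in CD1530 at D10 and 11.2 ± 0.24% in AGN at D10. Lama1 went from 27.8 ± 0.5% to 77.9 ± 0.1% and 56.3 ± 1.1%. At D6.25 Lama1 already held 49.7 ± 0.2% in CD1530 and 46.7 ± 1.0% in AGN. Lama4 held 8.39 ± 0.90% in PM, 11.5 ± 0.1% in CD1530 and 20.9 ± 1.1% in AGN, and Lama2 0.49 ± 0.09%, 3.27 ± 0.04% and 10.4 ± 0.1%. Per longest transcript in place of exon union, Lama1 held 68.9% in CD1530 and 44.4% in AGN and Lama4 19.9% and 32.3%, so the shares move with the length used while the leading chain does not.

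In the beta class, Lamb1 was the leading beta chain in all groups shown, with 75.0 ± 1.3% in PM, 77.1 ± 0.2% in CD1530 and 65.5 ± 0.8% in AGN at D10, and Lamb2 made up most of the rest, with 34.0 ± 0.7% in AGN. Per longest transcript Lamb1 held 82.3%, 84.2% and 75.0%. Lamc1 held 90.6 ± 0.5% of the gamma sum in PM and 97.5 ± 0.04% in CD1530 and 92.0 ± 0.3% in AGN at D10. Lamc3 held 16.7 ± 0.5% and 15.6 ± 0.5% at D6.25 in CD1530 and AGN, and 5.45 ± 0.47% in AGN at D10. Among the beta integrins, Itgb1 held 67.8 ± 0.1% in PM, 60.7 ± 0.6% in CD1530 and 73.5 ± 0.7% in AGN at D10, with 366 and 364 RPKM in the last 2 groups, the highest level per length of any member. Itgb5 held 22.7 ± 0.1%, 35.7 ± 0.6% and 23.7 ± 0.7%. Among the alpha integrins, Itga11 held 0.91 ± 0.17% in PM, 7.13 ± 0.17% in CD1530 at D10 and 25.6 ± 0.04% in AGN at D10, while Itga6 went from 25.5 ± 0.2% to 6.82 ± 0.08% and 5.62 ± 0.26%. These shares move with the length used as well: per longest transcript Itga11 held 0.63%, 5.75% and 21.4%, and Itga6 36.0%, 11.2% and 9.55%.

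**Figure D5:**
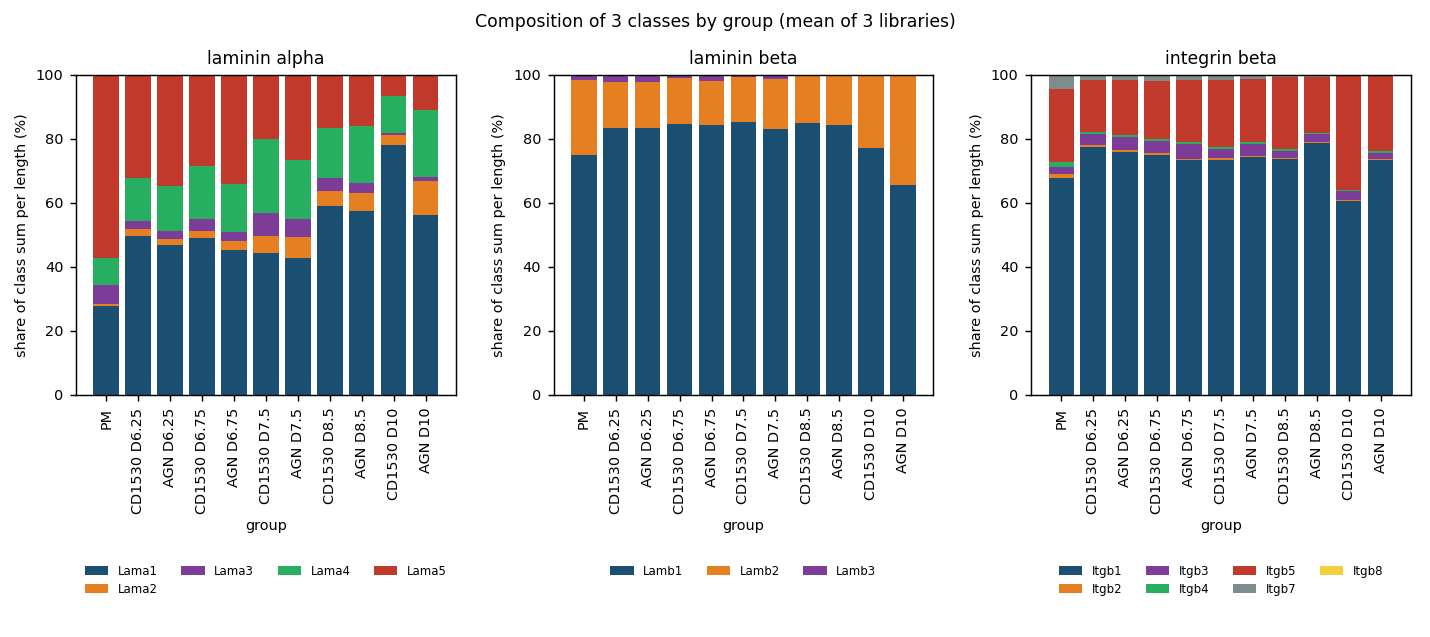
Share of each chain in the sum of per-length levels of its class, in percent, for the laminin alpha, laminin beta and integrin beta classes in the 11 groups (stacked means of 3 libraries). Lama5 (top, red) shrinks from 57.3% in PM while Lama1 (bottom, blue) grows to 77.9% in CD1530 at D10, and Itgb5 (red in the right panel) is widest in CD1530 at D10.

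Other genes of the pathway were read from 3 lists, beside the 22.7% of all genes that were higher and the 24.0% that were lower at D10. Of 10 partners of laminin in the basement membrane, 8 were higher and 1 lower in CD1530 at D10, with a median log2 fold change of 0.35 against -0.02 for all genes. The largest rises were in Ntn4, a laminin-binding netrin, by 1.21 ± 0.12 and in Bcam, a laminin alpha5 receptor, by 0.90 ± 0.06. The one called lower was Agrn, the proteoglycan agrin, by 0.62 ± 0.05. Of 10 other integrin ligands, 5 were higher and 4 lower, with a median of 0.01. Npnt and Spp1, which encodes osteopontin, were higher by 0.92 ± 0.10 and 0.79 ± 0.04, and Vcam1 and Edil3 were lower by 1.69 ± 0.06 and 0.80 ± 0.10. Of 25 genes of the integrin tail and focal adhesions, 10 were higher and 6 lower, with a median of 0.06. The focal adhesion kinase relative Ptk2b and the adaptor Pxn were higher by 0.77 ± 0.07 and 0.56 ± 0.04. Parvg and Fermt3, known from blood cells, were lower by 0.79 ± 0.30 and 0.71 ± 0.19, at mean levels of 0.74 and 1.83 CPM in CD1530.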

How the data were processed

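RNA sequencing of 33 cultures was analysed from 1 deposited table of raw counts per gene. The authors had aligned reads with STAR to GRCm38 and counted them with featureCounts. The deposited table holds no weakly counted genes, since each gene reached at least 0.611 CPM in 3 libraries, and a step that removed them is not given in the sources used here. The annotation release, strand setting and handling of multi-mapping reads are not given in the sources used here, so overlapping genes cannot be told apart. Counts were fitted with edgeR 4.0.16 in R 4.3.3, with TMM scaling, 11 group means over all 33 libraries, no covariates and a robust quasi-likelihood F test, in 19 contrasts. The edgeR filter removed 0 genes. Adjusted p-values follow Benjamini and Hochberg and span 17120 genes. The biological coefficient of variation was 4.68%. SE is the log2 fold change divided by the root of F. Exon lengths and positions came from GENCODE M21, which matched all 17120 identifiers. The fit was tested on simulated data. Alternatives were DESeq2's size factors and test (1.42.0), library size alone, other filters, a replicate block, a fit of the compared groups alone, each library left out, and other length scales for shares. Replicate columns were compared and 0 were identical, and the closest pair had a chi-square of 1.58 per gene. Intervals and spreads cover these libraries only, since the reporter line behind each replicate is not stated. PCR copies within a library are not independent molecules.

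One member is counted in the totals but not reported here by itself. The other members were named. Values in single libraries are given for those called at D6.25 and for the leading member per length of each class at D10. Members with a mean of at least 50 counts were added where they were among the 6 largest called differences each way at D10. So were such members among the 3 largest changes each way from PM. Itga5 at D10 and Itga8 and Lama3 in PM are given as means only. The members, lists and tests were chosen with earlier results of these data known, and the GC box and the deviations of single libraries were added after the values were seen. Of the study's other assays, only its qPCR of tendon genes was quoted here, and none was analysed again.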

Additional observations from a re-analysis of the deposited data

Results flagged for a closer look

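The change from D8.5 to D10 differed between CD1530 and AGN for 17 members, of which 16 are given here, by edgeR's test of the interaction itself. The values are the log2 change in CD1530 minus that in AGN. It was positive in Itga8 (1.04), Lama1 (0.99), Itgb2 (0.75), Itgb3 (0.67), Lamb1 (0.64), Itgb7 (0.62), Itga9 (0.61), Itga3 (0.50), Lamc1 (0.45), Itgb5 (0.42), Itgav (0.31) and Itga6 (0.28). It was negative in Lamc3 (-1.10), Lama3 (-0.82), Lama2 (-0.78) and Itga11 (-0.63).

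Over all 5 time points the interaction of condition with time was called for 24 of 33 members. Groups of 3 libraries were not tested for outlying samples.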

How the results depend on the processing

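Fitted on the compared groups alone, 9 members were called at D6.25 in place of 1, and 5 at D6.75 in place of 11. When single libraries were left out, 1 to 3 members were called at D6.25, with 3 without CD1530 replicate 2 and 2 without replicate 3, and the cause was not tested. The other counts of called members stayed within 1.5 times in all planned settings (273 of 277 comparisons), with 19 to 22 at D10 when a library was left out. Replicate numbers did not pair the libraries: 0 of 15 same-number correlations of deviations exceeded 0.1. With the replicate block, 22 members were called at D10 and 11 at D8.5 in place of 10. Over all genes, 329 calls at D6.25 became 804 in the fit of the compared groups alone and 196 to 218 without CD1530 replicate 1 or 3 or AGN replicate 1 or 3. At D6.75, 3076 calls became 1236 in that fit. No named value changed its direction with a call in any setting. Of 198 class shares under another length scale (the longest transcript, or no length), 144 moved by more than 1 SD. Of 2139 refits of single members, 49 lost and 38 gained a call.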
